A study of Homo sapiens with 18 samples.

Results

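The BCL2 family and cell death genes examined here are BAX, BAK1, BCL2, BCL2L1, MCL1, BID, BAD, TNFRSF21 and PDCD6, taken on every probe set that the platform annotation gives to exactly 1 of them. There are 24 such probe sets for the 9 genes, of 22283 on the array and 19065 with 1 gene symbol. They were measured in SH-SY5Y, a human neuroblastoma line with neuron-like features, either left untreated or exposed to sarin at 5 ppm, an organophosphate nerve agent that inhibits acetylcholinesterase. RNA was taken after 3, 24 and 48 h, with 3 Affymetrix arrays for each of the 6 groups. The labels name 6 flasks of cells for each group beside the 3 arrays, so p-values here reflect array-to-array spread alone, and that may be technical. The untreated group of the same time is the control in each sarin comparison, and the series asks how expression changes with time after exposure. On these arrays 12 of 13 measured noradrenergic markers were above background on at least 15 of the 18 arrays, and TH, the tyrosine hydroxylase gene, was above it on none. The 6 mesenchymal markers, which mark the substrate-adherent form of such cells, were above background just as often. Of the glial, blood and epithelial markers measured, 1 of 2, 1 of 3 and 1 of 4 were, so passing this limit does not by itself establish the cell type. At 24 h the summed signal of the mesenchymal markers was 25085.3 to 25779.3 with sarin and 29127.4 to 31368.8 in controls, and that of the noradrenergic markers 117715.3 to 120464.6 and 103369.3 to 115344. The glial sum was 252.4 to 409.1 with sarin and 540.8 to 707.3 in controls, and the blood sum 672.2 to 999.1 and 1003.3 to 1427.7. For the epithelial markers it was 657.5 to 701.1 and 753.2 to 879.5. A lower sum with sarin was thus not particular to the mesenchymal markers. The part of these differences in the results at 24 h was not tested.

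The BCL2 family decides whether the outer mitochondrial membrane stays closed. BAX and BAK1 form the pores through which cytochrome c leaves. BCL2, BCL2L1 (whose long product is BCL-XL) and MCL1 hold them in check, while the BH3-only proteins BID and BAD act upstream, BID after cleavage by caspase-8 and BAD by occupying BCL2 and BCL-XL unless it is phosphorylated and held by 14-3-3 proteins. TNFRSF21 encodes death receptor 6, a receptor with a cytoplasmic death domain that is expressed in neurons. PDCD6 encodes ALG-2, a calcium-binding penta-EF-hand protein of vesicle transport that was first described in cell death. Much of the control of these proteins lies in splicing, cleavage, phosphorylation and turnover, which arrays of transcript levels do not read.

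The bases before the annotated start of 3 of the genes are given because BCL2L1 and BAD passed the threshold in opposite directions at 24 h and because TNFRSF21 was the member past the threshold between control times. They come from RefSeq on GRCh38.p14, 250 bases upstream of the most upstream listed start, 5′ to 3′ on the gene's strand, and 8 of the 9 genes had an entry. BCL2L1 and BAD have 2 starts each in that table and TNFRSF21 has 1. Capitals mark matches on either strand to the TATA box TATAAA, to the GC box GGGCGG, to the CCAAT box and to the E-box CACGTG.

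BCL2L1 chr20:31723964-31724213 (- strand): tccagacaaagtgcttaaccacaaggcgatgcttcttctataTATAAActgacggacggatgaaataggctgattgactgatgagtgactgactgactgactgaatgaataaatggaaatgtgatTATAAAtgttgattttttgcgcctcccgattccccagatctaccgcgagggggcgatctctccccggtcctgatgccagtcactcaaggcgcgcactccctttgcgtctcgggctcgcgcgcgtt
BAD chr11:64284705-64284954 (- strand): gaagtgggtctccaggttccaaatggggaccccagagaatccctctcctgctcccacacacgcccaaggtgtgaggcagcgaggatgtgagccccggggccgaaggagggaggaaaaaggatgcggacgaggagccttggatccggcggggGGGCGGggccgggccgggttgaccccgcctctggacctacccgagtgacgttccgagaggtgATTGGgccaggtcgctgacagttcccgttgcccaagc
TNFRSF21 chr6:47309906-47310155 (- strand): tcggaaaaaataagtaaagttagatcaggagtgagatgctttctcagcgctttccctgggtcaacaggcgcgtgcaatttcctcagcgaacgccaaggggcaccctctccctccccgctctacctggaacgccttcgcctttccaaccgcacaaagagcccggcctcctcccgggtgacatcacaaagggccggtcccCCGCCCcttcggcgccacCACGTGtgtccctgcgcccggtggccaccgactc

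The BCL2L1 stretch held 2 matches to TATAAA, a string present in 10.7% of 35116 such stretches, and none to the other strings, while the stretch before its other listed start held none of the 4. The BAD stretch held 1 GC box and 1 CCAAT, which 42.6% and 32% of the stretches hold. In the TNFRSF21 stretch there was 1 GC box and 1 E-box, the latter found in 6.34%. These are matches of letters and were not tied to any change in signal.

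Signals are the deposited intensity on a linear scale, changes are differences of log2(signal + 16) with their standard error (SE, n = 3 arrays a group), and adjusted p-values are from limma with the Benjamini-Hochberg method over 11439 probe sets above a level filter. Of the 24 probe sets, 19 passed that filter, and the threshold is an adjusted p of 0.05. The other 5 were 3 of BCL2 (203684_s_at, 207004_at and 207005_s_at), 206665_s_at of BCL2L1 and 222152_at of PDCD6, and their adjusted p-values come from a fit without the filter. Probe sets whose names end in _x_at can also match other sequences, and those in _s_at are shared by several transcripts. The 3 sarin arrays at 48 h stood apart from the other 15: GAPDH 3′ over 5′ ratios were 2.15 to 2.30 against 0.696 to 1.17, and median signals 534.5 to 551.6 against 290.2 to 413.9. Their background level, set by the 90th percentile over 27 bacterial probe sets outside the hybridisation spike-ins, was 410.7 to 443.2 against 97.0 to 182.9. The sarin arrays at 24 h had GAPDH ratios of 1.05 to 1.17 and their controls 0.811 to 0.941, with median signals of 314.9 to 345.3 and 397 to 413.9.

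After 24 h, 1 probe set each of the survival genes MCL1 and BCL2L1 rose and 1 of the pro-death gene BAD fell. MCL1 rose on its brightest probe set by 0.84 ± 0.19 on the log2 scale, BCL2L1 on 212312_at by 0.81 ± 0.22, and BAD changed by -0.94 ± 0.26 on 209364_at. These 3 were the probe sets past the threshold among the 19 tested, where 7.16% of all probe sets tested passed (3.42% higher and 3.74% lower). The median change was 0.20 over the 19 and -0.09 over all tested. In RNA from whole cultures, fewer cells of a kind and less transcript per cell cannot be told apart.

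MCL1 encodes a short-lived guard of BAK1, and 200797_s_at read 3703, 2986 and 3642 in the 24 h controls against 6355, 6938 and 5230 with sarin (adjusted p = 0.0153, limma). All 3 sarin arrays lay above all 3 controls, a 1.79-fold difference. On BCL2L1 212312_at the controls read 624.9, 583.3 and 625.1 and the sarin arrays 1080, 1219 and 957.6, a 1.75-fold difference (adjusted p = 0.034, limma). Here too the groups did not overlap. In the 3 h controls this probe set read 1205, 835.5 and 810.2, which overlapped the 24 h sarin arrays. Its controls were lower at 24 h than at 3 h without overlap, short of the threshold (-0.60 ± 0.22, adjusted p = 0.114, limma). BAD 209364_at read 915.2, 930.6 and 928.7 in controls, which were tightly grouped, and 362.8, 434.8 and 677.5 with sarin (1.92-fold lower, adjusted p = 0.0335, limma). The sarin arrays were spread but all lay below the controls.

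**Figure D1:**
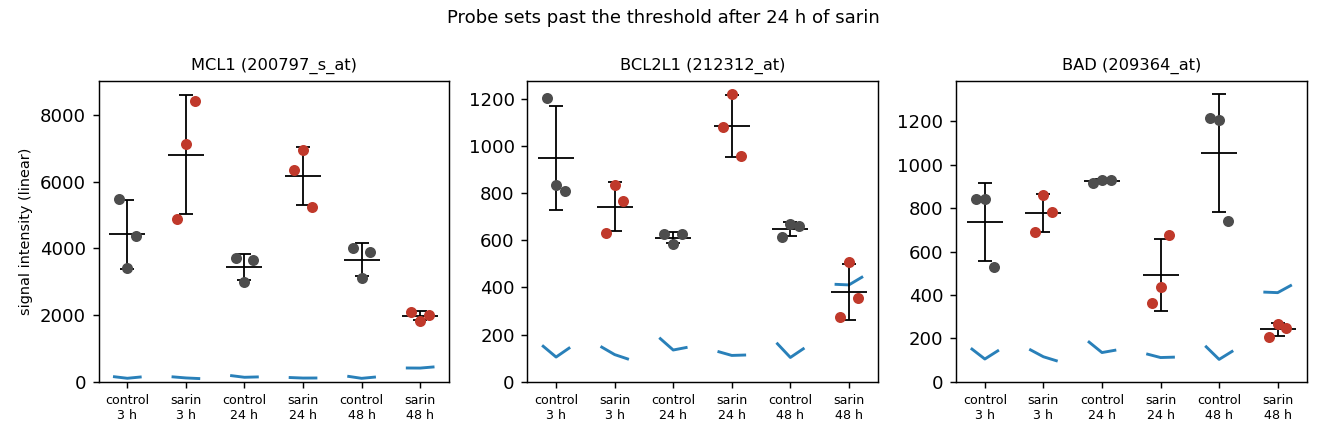
Signal intensity (linear axis from 0) of MCL1 200797_s_at, BCL2L1 212312_at and BAD 209364_at on each array of the 6 groups, with controls in grey, sarin in red, group mean and SD in black and the background level of the arrays as blue lines. At 24 h the MCL1 and BCL2L1 sarin arrays lie above their controls and the BAD sarin arrays below them; at 48 h all 3 probe sets are lower with sarin.

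The 3 calls lay close to the threshold. BCL2L1 missed the threshold whichever of the 6 arrays at 24 h was left out (adjusted p 0.0515 to 0.146, limma) and BAD in 5 of 6 omissions, all but sarin replicate 3, with values of -1.19 to -0.75. MCL1 lost its call without control replicate 2, sarin replicate 1 or sarin replicate 2. With the arrays centred on their medians BAD missed the threshold (-0.65, adjusted p = 0.118), with quantile normalization MCL1 and BAD did (adjusted p = 0.0594 and 0.0833), and with scaling to the hybridisation spike-ins all 3 did. With the GAPDH ratio as a covariate only BCL2L1 of the 3 passed. The signs of the 3 changes were the same in every one of these fits. Against the pooled 3 h and 48 h controls MCL1 (0.62, adjusted p = 0.0197) and BAD (-0.84, adjusted p = 0.018) passed and BCL2L1 was at 0.47 (adjusted p = 0.13), on controls that read 612 to 1205.

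Other probe sets of the same 3 genes gave part of this picture. BAD 1861_at read 665.7, 681.9 and 593.7 in the 24 h controls and 446.9, 436.4 and 446.1 with sarin, without overlap, at -0.53 ± 0.24 (adjusted p = 0.182, limma). Of the other 4 MCL1 probe sets, 200798_x_at was at 0.32 ± 0.20, 200796_s_at at 0.35 ± 0.51, 214056_at at 0.09 ± 0.53 and 214057_at at -0.01 ± 0.27, none past the threshold. BCL2L1 215037_s_at had the opposite sign, at -0.44 ± 0.33 (adjusted p = 0.431, 95% interval -1.13 to 0.243), and the intervals of the 2 probe sets do not overlap. The third, 206665_s_at, stayed below background in both groups. Averaged over the probe sets of a gene, BAD passed (-0.73 ± 0.20, adjusted p = 0.0297, limma), MCL1 did not (0.32 ± 0.21, adjusted p = 0.379) and BCL2L1 lay below the level filter.

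The pore formers and the other members were not past the threshold at 24 h. BAK1, a pore former resident in the outer mitochondrial membrane, read 568.2, 544 and 558.8 in controls and 687.5, 724.9 and 802 with sarin, without overlap, at 0.39 ± 0.22 (adjusted p = 0.279, limma). BAX 211833_s_at was at 0.63 ± 0.29 (adjusted p = 0.185) and BAX 208478_s_at at -0.09 ± 0.27. BID was at 0.43 ± 0.22 on 204493_at and -0.27 ± 0.18 on 211725_s_at, and BCL2 203685_at at 0.20 ± 0.31. With median centring BAK1, BID 204493_at and TNFRSF21 218856_at passed as well, under a scaling that raised the share of higher calls among all probe sets from 47.7% to 90.1%. BAX 211833_s_at, BAD 1861_at and PDCD6 203415_at each passed in 1 other setting (adjusted p = 0.0397, 0.0403 and 0.0413, limma). In all, 6 of the 19 had groups that did not overlap, against 38.9% of all probe sets tested.

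**Figure D2:**
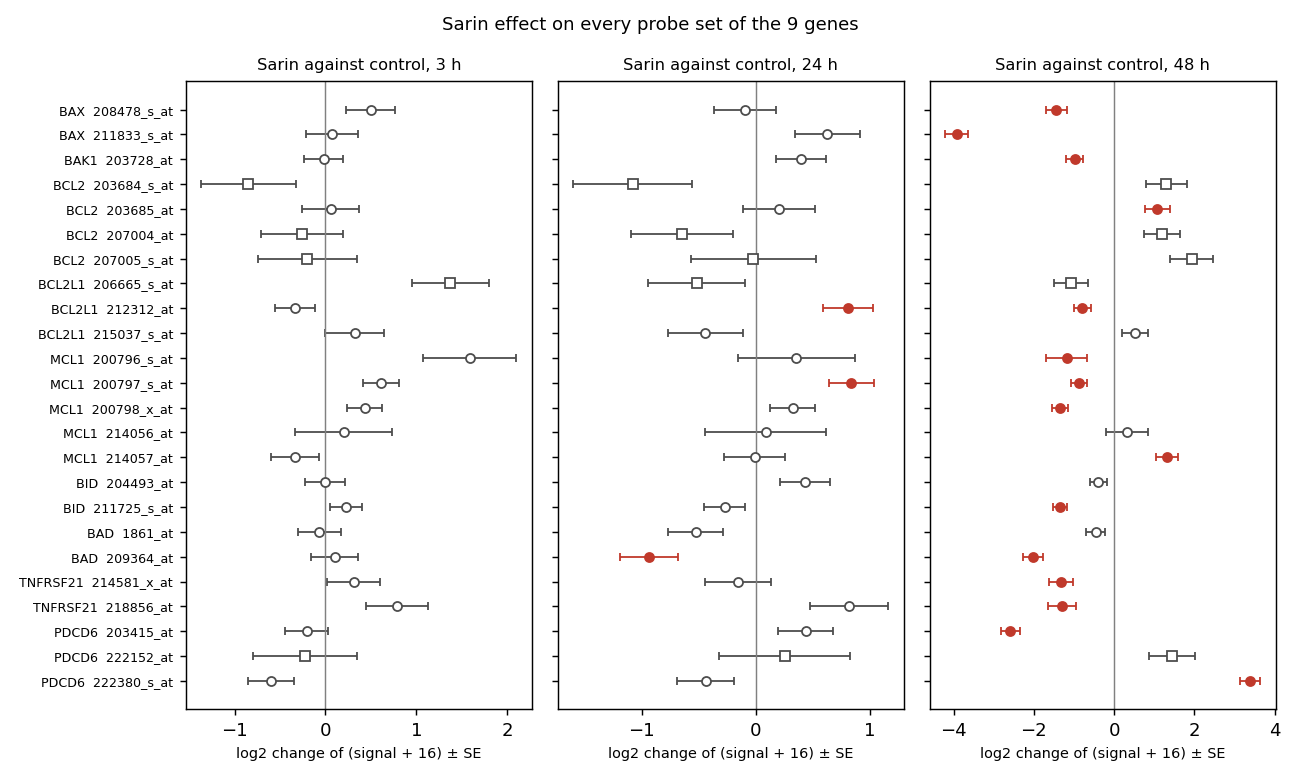
Log2 change with its SE (n = 3 arrays a group) of sarin against control at 3, 24 and 48 h for the 24 probe sets, by gene, with filled red circles for those past the threshold, open circles for the others tested and open squares for the 5 below the level filter. Each panel has its own horizontal range; there are 0 filled points at 3 h, 3 at 24 h and 15 at 48 h.

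At 3 h no member passed, nor did any other probe set tested (0 of 11439, 0%), and 5 of the 19 and 1141 of all had an unadjusted p under 0.05 in limma. The 5 were 3 probe sets of MCL1, 218856_at of TNFRSF21 and 222380_s_at of PDCD6. MCL1 200796_s_at read 282, 185.4 and 256.9 in controls and 802.8, 782.3 and 661.9 with sarin, 1.59 ± 0.51 (adjusted p = 0.38, limma). These groups did not overlap, while MCL1 200797_s_at at 0.61 ± 0.19 (adjusted p = 0.371) and 200798_x_at at 0.43 ± 0.20 (adjusted p = 0.475) had overlapping arrays. PDCD6 222380_s_at read 310.3, 301.9 and 328.1 in controls and 240.9, 189.8 and 178.1 with sarin, -0.60 ± 0.25 (adjusted p = 0.434, limma). BAX 208478_s_at, at 0.50 ± 0.27, and BID 211725_s_at, at 0.23 ± 0.18, also had non-overlapping arrays without reaching that p. Groups did not overlap for 5 of the 19 and for 14.1% of all probe sets tested. BCL2L1 212312_at was at -0.33 ± 0.22, and the other BCL2L1 probe sets had the opposite sign. On 215037_s_at the value was 0.32 ± 0.33 (adjusted p = 0.791, limma). Below the level filter, 206665_s_at read 22.9, 43.1 and 22.7 in controls and 46.2, 116.9 and 171 with sarin, without overlap (adjusted p = 0.419, limma without the filter). Of these, 2 of the 3 sarin arrays and none of the controls were above background.

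The sarin effect at 24 h minus that at 3 h passed for 0 of the 19 and for 0.717% of all probe sets. In limma, 2 of the 19 and 1351 of all probe sets had an unadjusted p under 0.05. BCL2L1 212312_at had the largest rise among the members, 1.14 (adjusted p = 0.109), and passed with array weights (1.31, adjusted p = 0.00514) and without the 48 h sarin arrays (adjusted p = 0.0281). The other BCL2L1 probe sets went the opposite way. On 215037_s_at the value was -0.76 ± 0.46 (adjusted p = 0.541, limma). The value of 206665_s_at was lower too (adjusted p = 0.23, limma without the level filter), but only 2 of its 18 arrays were above background, so no size is given. BAD 209364_at was at -1.04 (adjusted p = 0.225). The changes of BCL2L1 212312_at and BAD 209364_at at 24 h are thus not shown to differ from those at 3 h as deposited.

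TNFRSF21 fell between 3 and 24 h on its brighter probe set, in untreated and in exposed cells. On 218856_at the 3 h controls read 1523, 1315 and 1194, the 24 h controls 86.2, 210.8 and 179, and the 48 h controls 610.2, 839.8 and 535.5. The 3 control groups did not overlap, and the 24 h arrays were the lowest, with 2 of 3 above background. The change from 3 to 24 h was -3.03 ± 0.34 (8.18-fold lower, adjusted p = 0.000129, limma) and was past the threshold without any 1 of these 6 arrays. It was the only 1 of the 19 member probe sets past the threshold between the 3 h and 24 h controls, where 5.26% of all probe sets passed. From 24 to 48 h it rose by 2.01 ± 0.34 (adjusted p = 0.012, limma), again the only member, with 0.428% of all past the threshold. That call was lost without 24 h control replicate 1 (1.66, adjusted p = 0.076) or 48 h control replicate 2 (1.83, adjusted p = 0.101). Between 3 and 48 h it was at -1.02 ± 0.34 (adjusted p = 0.222), and 0 members passed, with 0.323% of all. The arrays of these times also differed as sets. ACTB 3′ over 5′ ratios in controls were 0.7903 to 1.137 at 3 h, 1.462 to 1.504 at 24 h and 1.075 to 1.441 at 48 h. With sarin they were 0.8331 to 0.9553 at 3 h and 1.559 to 1.635 at 24 h. Time and this difference between the arrays cannot be told apart.

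The same fall was present in exposed cells. With sarin 218856_at read 2380, 2068 and 2539 at 3 h and 501.4, 275 and 147.6 at 24 h, -3.01 ± 0.34 (adjusted p = 2.01e-05, limma). Against the controls of the same time the sarin arrays were higher without overlap at 3 h (0.79 ± 0.34, adjusted p = 0.445) and overlapped them at 24 h (0.82 ± 0.34, adjusted p = 0.152). Set against the pooled 3 h and 48 h controls, the 24 h sarin arrays were lower, at -1.71 (adjusted p = 0.000905). Without 24 h sarin replicate 3 the comparison with the 24 h controls passed (1.23, adjusted p = 0.0399). The second probe set, 214581_x_at, had a smaller range: 651.2, 765 and 603.8 in the 3 h controls and 501, 442.4 and 414.2 in those of 24 h, lower without overlap at -0.55 ± 0.29 (adjusted p = 0.265). In exposed cells it fell by 1.02 ± 0.29 on the log2 scale from 3 to 24 h (adjusted p = 0.0313, limma).

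**Figure D3:**
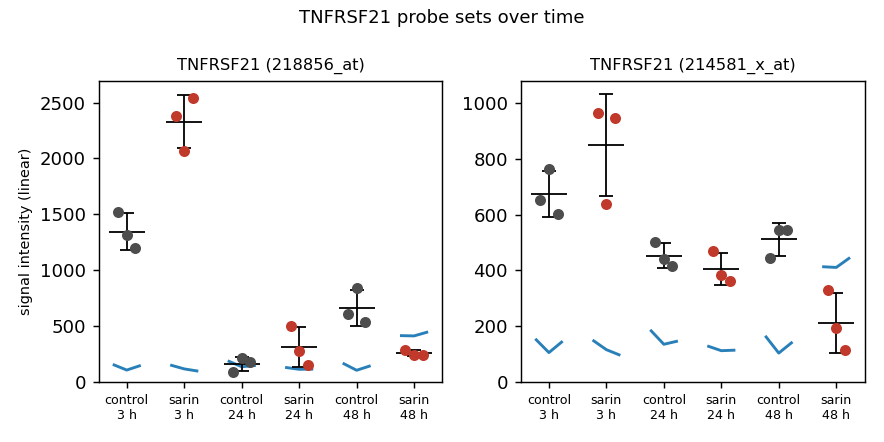
Signal intensity (linear axis from 0) of both TNFRSF21 probe sets on each array, with controls in grey, sarin in red, group mean and SD in black and background levels as blue lines. On 218856_at the 3 h arrays of both treatments lie at 1194 to 2539 and the 24 h arrays at 86.2 to 501.4, and 214581_x_at is lower at 24 h than at 3 h by less.

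Between 3 and 24 h of sarin, 9.31% of all probe sets and 3 of the 19 passed: both TNFRSF21 probe sets and 222380_s_at of PDCD6, which rose from 240.9, 189.8 and 178.1 to 330.5, 409 and 534.4 (0.99 ± 0.25, adjusted p = 0.0168, limma). This rise had a counterpart in controls, from 310.3, 301.9 and 328.1 to 820.6, 418.1 and 540.7, that missed the threshold (0.83 ± 0.25, adjusted p = 0.058). The PDCD6 probe set 203415_at read 1659, 1881 and 1760 in the 24 h controls and 2758, 2178 and 2271 with sarin, without overlap (0.43 ± 0.24, adjusted p = 0.276). Against the 3 h and 48 h controls its value was -0.13.

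The sarin effect at 48 h differed from that at 24 h for 14 of the 19, with 61.6% of all probe sets past the threshold. After 48 h most member probe sets were lower with sarin: 12 of the 19 fell and 3 rose, with at least 1 in each of the 9 genes. Across all probe sets tested 68.7% passed (33% higher and 35.6% lower), and the median change was -0.98 over the 19 and -0.03 over all. The -0.98 was the value of BAK1, whose sarin signals were above background on 0 of the 3 arrays, so it gives no size. Among the 12 that fell, both BAX probe sets, both TNFRSF21 probe sets and 1 each of BAD and MCL1 were likewise above background on no sarin array. Groups did not overlap for 14 of the 19 and for 68.8% of all. Exposure at this time cannot be told apart from the state of the 3 arrays described above, on which 7 of the 24 probe sets were above background on all arrays and 9 on none, against 18 to 20 on all in the other groups. For the effect at 48 h, only a bound is given where sarin signals were not above that background. The adjusted p beside a bound is from limma on the deposited signals and does not test the bound. Scaling also matters here: with median centring the median over all probe sets was -0.59 and 26.5% of calls were higher, with spike-in scaling -2.02 and 0.449%, against 48.1% as deposited.

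The pore formers fell. BAX 211833_s_at read 754.2, 686.5 and 631 in controls and 49.6, 21.3 and 25.4 with sarin, at least 1.61-fold lower (adjusted p = 1.01e-09, limma). On BAX 208478_s_at the signals were 553.8, 569.9 and 555.6 against 277.1, 111.8 and 241.2, at least 1.31-fold lower (adjusted p = 0.000129), and on BAK1 552.2, 476.3 and 695.8 against 345, 234.5 and 269.3, at least 1.33-fold lower (adjusted p = 0.000634). All 3 were below every control of that time. Their adjusted p-values are for the deposited signals, which were under background with sarin, and do not test the bounds.

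Of the BH3-only genes, BAD 209364_at fell from 1214, 1206 and 738.8 to 207.1, 268.3 and 249.3, at least 2.38-fold lower (adjusted p = 1.44e-06, limma). BAD 1861_at was at -0.46 ± 0.24 (adjusted p = 0.0942). BID 211725_s_at fell from 1848, 1411 and 1632 to 465.8, 823.4 and 646.8 (-1.34 ± 0.18, adjusted p = 2.9e-06) and BID 204493_at was at -0.39 ± 0.22 (adjusted p = 0.12). TNFRSF21 218856_at read 287.9, 242.3 and 235.5 with sarin, below the 48 h controls given above and at least 1.52-fold lower (adjusted p = 0.00249), and 214581_x_at was at least 1.2-fold lower (adjusted p = 0.000564). Here too the p-values beside a bound do not test the bound.

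The survival genes were split between probe sets. MCL1 200797_s_at fell from 4015, 3097 and 3877 to 2099, 1828 and 2005 (-0.88 ± 0.19, adjusted p = 0.000594, limma) and 200798_x_at changed by -1.35 ± 0.20. MCL1 214057_at rose from 417, 309.1 and 353.7 to 997.7, 1166 and 656.9 (1.32 ± 0.27, adjusted p = 0.000262), with the sarin arrays above all controls. MCL1 200796_s_at, past the threshold at an adjusted p = 0.0478, had sarin signals at or under background on all 3 arrays, had overlapping groups and kept its call in 2 of 6 omissions of an array. BCL2L1 212312_at fell from 612, 669.8 and 661.1 to 273.6, 507.6 and 356.9, with 1 of these 3 above background and no overlap (-0.79 ± 0.22, adjusted p = 0.00399), while 215037_s_at was at 0.51 ± 0.33 (adjusted p = 0.171). BCL2 203685_at rose from 752.6, 320.4 and 505.5 to 1499, 1159 and 695.2, with overlapping arrays (1.08 ± 0.31, adjusted p = 0.00515). With spike-in scaling 203685_at of BCL2 and 214057_at of MCL1 turned lower, at -0.92 (adjusted p = 0.0214) and -0.67 (adjusted p = 0.126).

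PDCD6 showed the widest split. On 203415_at the 48 h controls read 3094, 2320 and 2163 and the sarin arrays 507.1, 225.8 and 559.7, a fall of -2.59 ± 0.24 (6.01-fold, adjusted p = 2.54e-08, limma). On 222380_s_at they read 432.2, 301.3 and 437.3 against 4115, 4363 and 4088, a rise of 3.39 ± 0.25 (10.5-fold, adjusted p = 1.23e-09). On 203415_at 2 of the 3 sarin arrays were above background. Neither pair of groups overlapped, and both calls and directions held under all 3 other scalings. The files do not give a direction for the gene as a whole at 48 h. The third PDCD6 probe set, 222152_at, was at or below the background level on all 18 arrays.

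**Figure D4:**
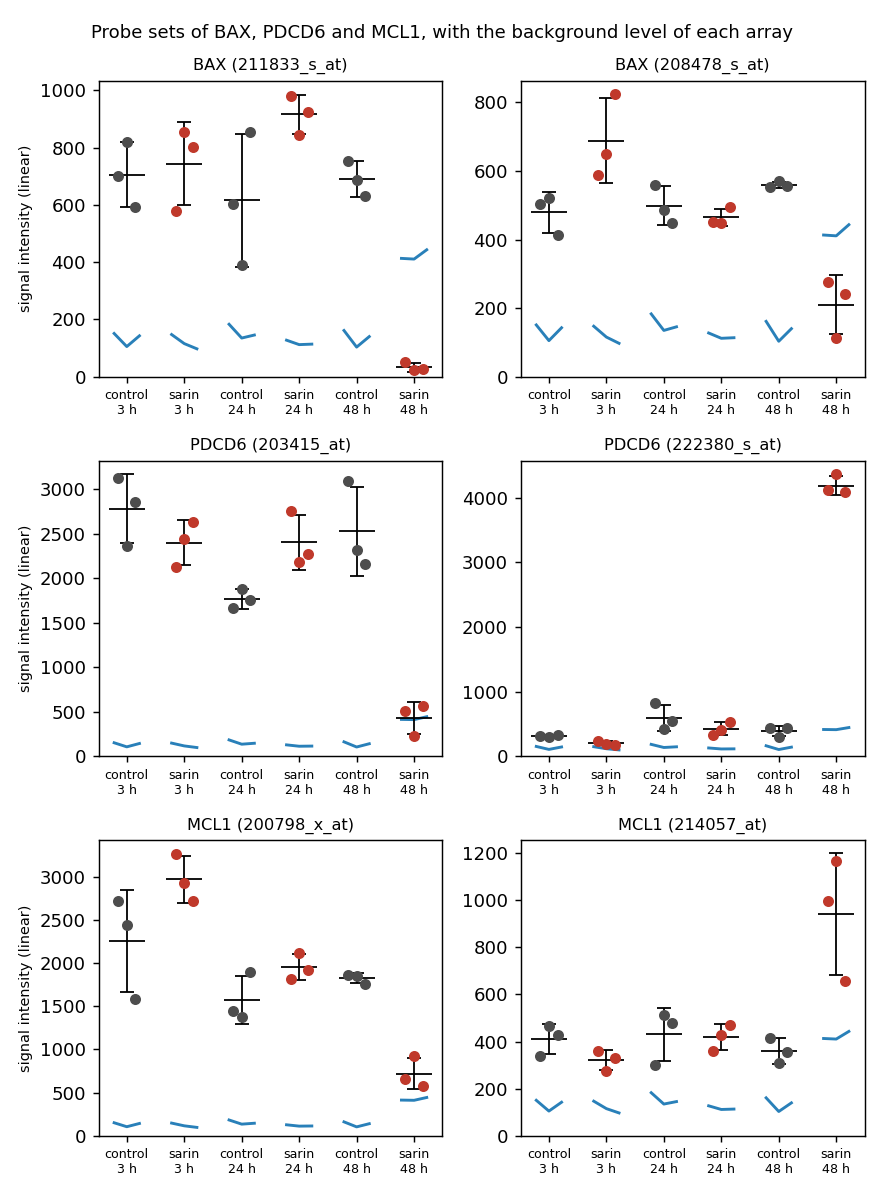
Signal intensity (linear axis from 0) of probe set pairs of BAX, PDCD6 and MCL1 on each array, with controls in grey, sarin in red, group mean and SD in black and the background level of each array as blue lines. At 48 h both BAX probe sets lie below the raised background of the sarin arrays, while PDCD6 222380_s_at and MCL1 214057_at are higher and PDCD6 203415_at and MCL1 200798_x_at lower than in controls.

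The 5 probe sets below the level filter all had an adjusted p under 0.05 at 48 h in the fit without that filter, where 63.1% of all did. BCL2 207005_s_at read 229.8, 422.4 and 305.7 with sarin and BCL2 203684_s_at 89.7, 105.5 and 478.7. Each was above the raised background on 1 of these 3 arrays and on none of the controls, so no fold is given for either. BCL2 207004_at read 651.5, 694 and 286.2, with 2 of 3 above background, and was at 1.19 ± 0.45 (adjusted p = 0.0272). BCL2L1 206665_s_at and PDCD6 222152_at were not above background in either group. At 3 and 24 h none of the 5 passed, beside 0% and 3.59% of all in that fit.

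Among the other BCL2 family members, with 8 of 17 listed genes tested by their brightest probe set, 0 rose and 3 fell at 24 h. Their median was -0.49 beside -0.09 over all genes, of which 3.4% rose and 3.99% fell. BNIP3, a mitophagy receptor induced by low oxygen, read 3720 ± 263 (SD, n = 3) in controls and 1630 ± 62.5 with sarin (-1.18 ± 0.19, adjusted p = 0.0013, limma). Its relative BNIP3L was at -0.78 ± 0.20 (adjusted p = 0.0253) and BCL2L2, which encodes the survival protein BCL-W, at -0.85 ± 0.24 (adjusted p = 0.0406). BNIP3 and BNIP3L are more often described in mitophagy than in apoptosis. PMAIP1, the BH3-only partner of MCL1 known as NOXA, was at 0.04, -0.06 and -1.52 at 3, 24 and 48 h, and passed at 48 h (adjusted p = 1.22e-06). BCL2L11, which encodes BIM, lay below the filter at 0.51, 0.34 and 2.07 and was above background on 1 of 3 sarin arrays at 48 h. Across the list, 1 rose and 5 fell at 48 h, where 35.1% of all genes rose and 34.6% fell.

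The apoptosome, caspase and mitochondrial effector list had 15 tested genes, of which 0 passed at 24 h and 4 rose and 7 fell at 48 h. Over all genes 3.4% rose and 3.99% fell at 24 h, and 35.1% rose and 34.6% fell at 48 h. At 24 h CYCS (cytochrome c) was at -0.05 ± 0.19, APAF1, the scaffold of the apoptosome, at -0.27 ± 0.47 and CASP9, its caspase, at -0.18 ± 0.20. At 3 h CYCS was at -0.43 ± 0.19, APAF1 at -0.40 ± 0.47 and CASP9 at -0.48 ± 0.20, and at 48 h CYCS changed by -1.65 ± 0.19 (adjusted p = 3.2e-07, limma), with APAF1 at -0.61 and CASP9 at 0.21. Of 4 inhibitor of apoptosis genes tested 0 passed at 24 h, and 1 rose and 2 fell at 48 h. XIAP, below the filter, was at -0.01, -0.43 and 1.64 at the 3 times. Medians at 24 h were -0.06 and -0.14 for these 2 lists, beside -0.09 over all genes.

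Of 8 death receptor and adaptor genes tested, 0 rose and 1 fell at 24 h, CRADD, an adaptor of caspase-2 (-0.68 ± 0.17, adjusted p = 0.0202, limma), with a list median of -0.07. At 48 h 3 rose and 0 fell, CRADD among the higher (1.06 ± 0.17). Among 19 partners and regulators 1 rose and 1 fell at 24 h, with a median of 0.04. YWHAB, a 14-3-3 protein of the kind that holds phosphorylated BAD, read 5370 ± 237 (SD, n = 3) in controls and 9400 ± 530 with sarin (0.81 ± 0.17, adjusted p = 0.00769), and PPP3CA, the catalytic subunit of calcineurin, which removes phosphate from BAD, was at -0.79 ± 0.24 (adjusted p = 0.0488). At 48 h 1 of these rose and 10 fell. Of 10 penta-EF-hand genes and PDCD6 partners 0 rose and 1 fell at 24 h, CAPN2, a calpain (-0.48 ± 0.13, adjusted p = 0.0357), with a median of -0.19, and 0 rose and 6 fell at 48 h. None of 5 other PDCD genes passed at 24 h (median 0.12), and 2 fell at 48 h. At 3 h 0 genes of any of these lists passed, nor did any other gene (0%). Beside these counts, 3.4% of all genes rose and 3.99% fell at 24 h, with a median of -0.09. At 48 h 35.1% of all genes rose and 34.6% fell.

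Over the 15 arrays other than sarin at 48 h, the genes whose log2 signal ran most like MCL1 200797_s_at among 8053 compared were CSE1L (Pearson r of 0.92), PPIF (0.903) and MIOS (0.896). For BCL2L1 212312_at they were DNAJC2 (0.88), METTL13 (0.865) and CCT2 (0.859), and for BAD 209364_at SH3BP4 (0.882), TBC1D1 (0.878) and GAMT (0.87). TNFRSF21 218856_at ran most like TLE3 (0.933), BUB3 (0.923) and EIF4B (0.919). For BAX, BAK1, BCL2, BID and PDCD6 the highest r was 0.921 with SLC29A1, 0.806 with BCLAF1, 0.876 with AMZ2, 0.809 with ECHDC3 and 0.815 with EIF3H. These points share groups, arrays and scaling, and the highest of many correlations is high by selection, so they are a description only. Over all 18 arrays another gene held first place for each of the 9 members.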

How the data were processed

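The authors deposited 1 linear intensity value per probe set and array, for 18 arrays. MAS5 is the tool named, per the submitters' processing notes, and the sources used here do not give its version or scaling target. The authors' scaling sets a common trimmed mean (800.1 to 800.3), so a group with another signal distribution is shifted over part of its range. All 24 probe sets had 1 gene symbol. Values were taken as log2(signal + 16), which understates changes of low signals. A single limma model (version 3.58.1, R 4.3.3) held the 6 group means, with moderation that follows a mean-variance trend (lmFit, then eBayes; residual degrees of freedom 12, prior 7.113). Two-sided tests had Benjamini-Hochberg adjustment over the 11439 single-gene probe sets in the upper 60% by mean log2 signal, a signal of 259.5 or more.

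A probe set was above background where its signal passed the 90th percentile, on that array, of 27 bacterial probe sets outside the hybridisation spike-ins. Where it did not on any array of 1 group, the change is given as "at least": the other group's mean log2 value over all its arrays was set against the mean of, per array, the higher of the background level and the probe set's own signal. That no RNA of these bacterial genes had been added to the samples is assumed. Precision is limited by the 3 arrays a group.

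The members and lists were chosen with earlier results of these data known. Every member probe set is described. From the lists, the text names genes past the threshold at 24 h, up to 4 a list by smallest p, and 6 genes at every time (CASP9, APAF1, CYCS, XIAP, BCL2L11 and PMAIP1); 2 further genes of that rule are not analysed here. List genes past the threshold at 48 h are given as counts. The comparison of sarin at 24 with 3 h, and the refits of TNFRSF21 between times, were added after the values were seen. Sequences are from RefSeq, and no genome positions were given to probe sets.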

Additional observations from a re-analysis of the deposited data

Results flagged for a closer look

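For 14 member probe sets the sarin effect at 48 h differed from that at 24 h in limma (adjusted p under 0.05 for the difference, as for 61.6% of all probe sets tested). The difference, on the log2 scale, was lower at 48 h by the following values: BAX -1.34 on 208478_s_at and -4.54 on 211833_s_at, BAK1 -1.38, and BCL2L1 -1.6 on 212312_at. For MCL1 it was -1.71 on 200797_s_at and -1.67 on 200798_x_at, for BID -0.818 on 204493_at and -1.07 on 211725_s_at, and for BAD -1.09 on 209364_at. For TNFRSF21 it was -1.16 on 214581_x_at and -2.12 on 218856_at, and for PDCD6 -3.02 on 203415_at. The 2 probe sets with a higher value at 48 h were MCL1 214057_at (1.33) and PDCD6 222380_s_at (3.83). Each difference subtracts the effect at 24 h from that at 48 h, so it draws on both: for BID 204493_at, -0.39 at 48 h and 0.43 at 24 h, neither past the threshold. The values of both BAX probe sets, BAK1, BAD 209364_at and both TNFRSF21 probe sets rest on sarin signals that were not above background on any array at 48 h, so they give no size of a change. Time cannot be told apart from the raised 3′ over 5′ ratios and background of the 3 sarin arrays at 48 h.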

How the results depend on the processing

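At 24 h, 3 member probe sets passed as deposited. There were 1 with quantile normalization, 5 with median centring, 0 with spike-in scaling, 1 with the mean of a gene's probe sets, 5 with array weights and 1 with the GAPDH ratio as a covariate. Leaving out 1 array gave 0 to 3: 0 without control replicate 2, sarin replicate 1 or sarin replicate 2, 1 without control replicate 1 or 3, and 3 without sarin replicate 3. The other settings gave 3 or 4. Among all probe sets the count at 24 h was 819, against 430 with quantile normalization, 1530 with median centring, 2735 with array weights, 1379 without the 48 h sarin arrays, 2063 in a fit of the 24 h arrays alone, 1278 with the GAPDH covariate, 1280 with other controls, 38 with spike-ins and 229 to 549 without 1 array. For 24 minus 3 h it was 82, against 541 with array weights, 176 without the 48 h sarin arrays, 238 with the GAPDH covariate, 48 with quantile normalization, 38 without a trend, 1 with spike-ins and 20 to 129 without 1 array. The effect at 24 minus 3 h passed for 1 member with array weights and for 1 without the 48 h sarin arrays, and for 0 otherwise. At 48 h the count of 15 became 8 in the upper 40% by level and 9 with 1 probe set a gene (9 members tested in each), 6 of 7 with gene means, since fewer were tested, and 14 to 19 elsewhere. At 3 h it was 0 in all fits run. Above-background counts at 48 h depend on the limit: with the 75th percentile or the highest bacterial probe set, 12 or 2 of 24 passed it on all 3 sarin arrays.

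Signs turned at 48 h for BCL2L1 215037_s_at (-0.059 with quantile normalization, -0.049 with median centring, -1.40 with spike-ins) and MCL1 214056_at (-0.19, -0.25 and -1.59; -0.19 to 1.19 without 1 array, at -0.05 without sarin replicate 2). With spike-in scaling BCL2 203685_at was at -0.92 and MCL1 214057_at at -0.67. With the 3 h and 48 h controls, TNFRSF21 218856_at was at -1.71 and PDCD6 203415_at at -0.13 at 24 h. The cause was not tested, beyond the control levels given above. A further 41 values with p of 0.05 or more and no call in any fit were not followed singly: 62 of their 907 refits turned sign, with a smallest adjusted p of 0.0625.

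The median over all probe sets at 24 h was -0.09 as deposited, -0.01 with quantile normalization, 0.20 with median centring and -0.05 with spike-ins, and 51.9%, 90.1% and 60.5% of calls were higher under these 3. At 48 h it was -0.03, -0.24, -0.59 and -2.02, with 40.5%, 26.5% and 0.449% higher.

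Same-numbered control and sarin arrays of a time did not vary together: their deviations from the group means correlated at -0.174 to 0.0185. Same-numbered arrays of different times were not compared in this way. In controls the background level was highest on replicate 1 and lowest on replicate 2 at each time. Whether the number marks a structure shared across times was not tested. With a replicate block, 0, 3 and 14 members passed at 3, 24 and 48 h, and 0 for 24 minus 3 h.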
